A study of Homo sapiens with 33 samples.

Results

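The genes described here are 53 genes of the DNA replication machinery, from origin recognition to nucleotide supply for S phase. They were chosen by name: every probe set whose platform annotation gives 1 of these 53 symbols was taken. All 53 were on the array, with 79 probe sets of the 19065 that carry 1 gene symbol, and they are 53 of the 11963 genes so named. Messenger RNA was measured on 33 Affymetrix HG-U133A arrays of human anaplastic large cell lymphoma lines, a T-cell lymphoma driven by the kinase ALK. The lines were Su-DHL1 and TS, which was subcloned from the Sup-M2 line. The 33 arrays form 11 groups of 3.

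In 7 groups, all cells carried a DsRed-tTRKRAB repressor vector and a GFP vector with a short hairpin RNA that doxycycline (dox) switches on, and had been sorted for both colours as pools after a short pulse of dox, with cells that showed GFP without dox removed in a second sort. Hairpin A5 targets ALK and hairpin A5M is its mutated control. The groups were TS with A5 and 1 microg/ml dox for 84 h, TS with A5M and dox for 84 h, TS with A5 without dox at 84 h, TS with A5 with dox for 72 h and without dox at 72 h, and Su-DHL1 with A5 with dox for 72 h and without dox at 72 h. Uninduced cells were not given dox, so only the A5M group holds dox constant, and A5M was measured in TS at 84 h alone. The other 4 groups were TS cells after 6 h at 300 nM of compound A2 or A3, both called ALK inhibitors, at 300 nM of compound A1, and without compound (U). For A1 the labels conflict: an ALK inhibitor in the sample descriptions, a mock compound in the design. U is untreated in the descriptions, and the design names a diluent. The labels do not say that replicates were separate cultures, so the p-values below measure a spread that may be technical.

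Replication starts at origins marked by the origin recognition complex, where CDC6 and CDT1 load the ring-shaped MCM2-7 helicase in G1. CDC45 and the GINS complex turn that helicase on, and polymerases alpha, delta and epsilon then copy the strands with the sliding clamp PCNA. Many of these genes are textbook targets of the E2F transcription factors and are transcribed mainly as cells enter S phase. In these bulk samples, fewer cells in S phase and less RNA per cell cannot be told apart.

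The values are MAS5 signals, intensities on a linear scale. Fold changes were taken after adding 11 to each signal, on a log2 scale. For dim genes they are therefore too small, and the ± given with them is the standard error (SE) from limma, with 3 arrays per group. A gene was called at a limma adjusted p below 0.05, adjusted over all 9101 genes tested in the hairpin arrays or 8594 in the inhibitor arrays. All 53 members were tested in both sets. A member was tested if it reached the array's 40th percentile, 33.3 to 44.1 in signal, on at least 3 arrays, and 43 members reached it on all 21 hairpin arrays and all 53 on the 12 inhibitor arrays. Since that filter can be passed through the uninduced arrays alone, the counts below are read beside those of all genes tested. Replicate arrays correlated at r = 0.969 to 0.985.

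ALK itself, the hairpin's target, checked the labels. On its brighter probe set the signal lay between 201.1 and 388.6 on the induced TS arrays, against 1806.4 to 2100.3 on the uninduced ones, and between 629.0 and 651.3 on the induced Su-DHL1 arrays, against 2745.3 to 3183.9. The 7 ALCL and T-cell line markers all reached the 40th percentile on at least 3 arrays and 5 of them on all 33. Of markers of other cell types, the B-cell gene CD79B, the myeloid genes CD14 and LYZ and the epithelial genes EPCAM, KRT19 and CDH1 reached it on no array. Of 4 B-cell, 4 myeloid, 5 epithelial and 4 stromal markers measured, 0, 1, 0 and 2 reached it on all 33. On at least 3 arrays, 3, 2, 2 and 4 of them reached it, in the same order. The summed signal of the 7 ALCL and T-cell line markers, ALK among them, lay at 6404.9 to 7156.1 with induced A5 in TS at 84 h against 11586.5 to 11850.3 without dox, 6558.9 to 6630.8 against 12152.3 to 13277.7 in TS at 72 h, and 11432.4 to 12666.8 against 16355.4 to 18155.7 in Su-DHL1. It lay at 4891.0 to 5456.7 with A2 and 4664.6 to 5186.9 with A3, against 13016.0 to 14389.4 with A1 and 13377.9 to 14208.0 in U. The summed signal of the 4 myeloid markers moved with the hairpin: 348.9 to 416.1 with induced A5 in TS at 84 h against 156.9 to 203.4 without dox, 506.2 to 602.2 against 178.4 to 230.1 in TS at 72 h, and 268.9 to 320.5 against 118.5 to 150.7 in Su-DHL1. With the inhibitors that sum was 89.2 to 95.8 with A2 and 88.7 to 115.2 with A3, against 142.3 to 182.2 with A1 and 159.4 to 176.2 in U. The epithelial sum lay at 162.9 to 169.1 with induced A5 against 87.9 to 120.8 without dox in TS at 84 h, and overlapped between induced and uninduced arrays in the other settings. The stromal sum lay at 345.5 to 414.5 against 211.8 to 291.4 in TS at 84 h and overlapped between groups in the other settings. The part of these signals in the results was not tested.

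Nearly the whole replication machinery was lower where the ALK hairpin was induced. Averaged over the 3 settings (TS at 84 h, TS at 72 h, Su-DHL1 at 72 h), 51 of 53 members fell, none rose, and ORC2 and ORC5 did not pass the test. Of all genes tested, 21.7% were called lower and 29.1% higher in that average. The median member change was -1.18 on the log2 scale, where the median of all genes was 0.07. Of the 51, 31 fell at least 2-fold and 6 at least 4-fold. In single settings, 48 members fell in TS at 84 h, 49 in TS at 72 h and 40 in Su-DHL1, and none was called higher in any of the 3. Of all genes, 18.8% were lower and 21.8% higher in TS at 84 h, 15.2% and 18.9% in TS at 72 h, and 10.7% and 13.9% in Su-DHL1. The median member change was -1.63, -1.21 and -0.57 in that order of settings. In 50, 49 and 44 members, all 3 induced arrays lay below all 3 uninduced ones, against 20.9%, 21.3% and 16.2% of all genes. Per setting, 38 members fell in all 3, where at most 10.7% of all genes, the share lower in Su-DHL1, can have done so. Another 10 fell in both TS settings only, RFC1 in both 72 h settings, ORC4 in Su-DHL1 only, and ORC2, ORC5 and PRIM2 in none.

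**Figure D1:**
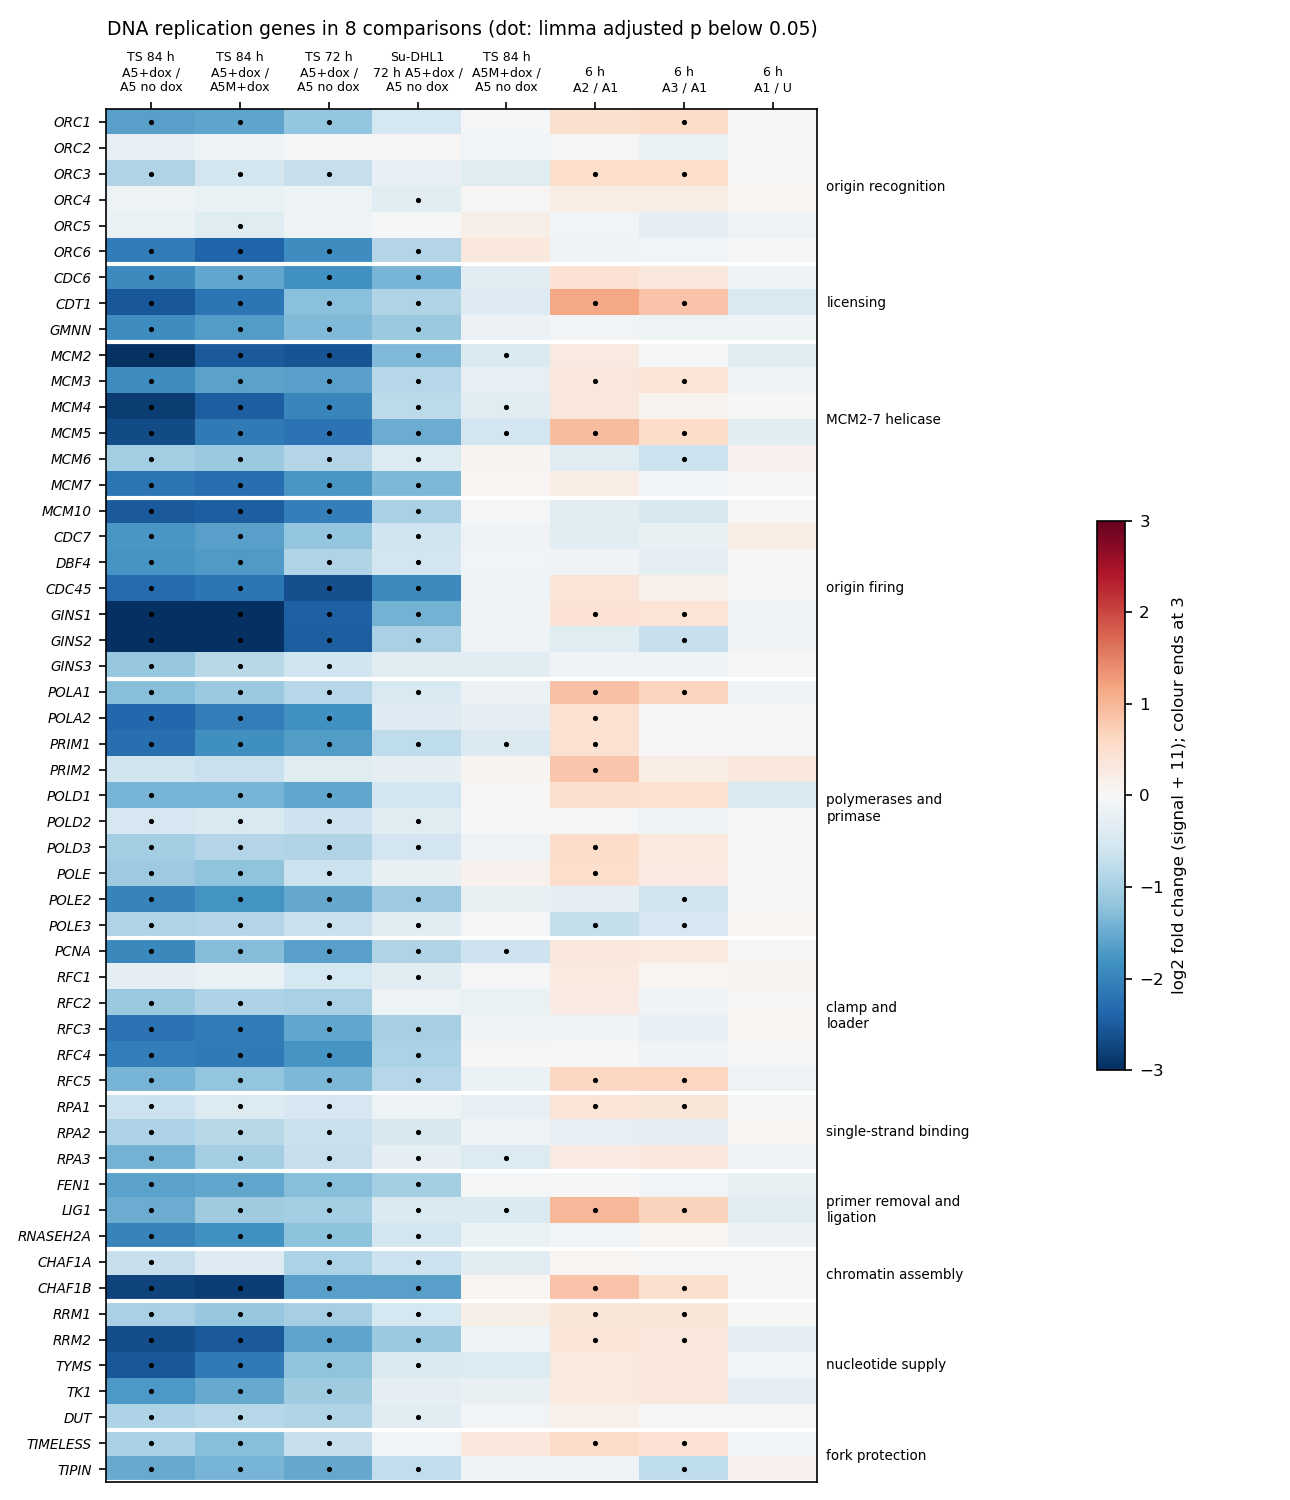
Log2 fold change (colour, blue lower and red higher, ends at 3) of the 53 replication genes, grouped by role down the page, in 8 comparisons across it, with a dot where limma's adjusted p was below 0.05. The 4 left columns, induced A5 against its controls, are blue for nearly all genes, ORC2 and ORC5 stay pale, and the A2 and A3 columns hold red and blue genes.

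Origin recognition changed unevenly. Of the 6 subunits of the origin recognition complex, 4 fell in the average (median -0.41). ORC6 gave 57.6, 79.3 and 79.6 with induced A5 in TS at 84 h, against 376.6, 294.2 and 352.5 without dox. It gave 98.4 to 107.7 against 372.2 to 419.3 in TS at 72 h, and 159.2 to 191.2 against 265.6 to 392.0 in Su-DHL1. No induced array reached an uninduced one in any setting, and the average change was -1.61 ± 0.08 (limma adjusted p = 4.37e-14). ORC1, the large subunit with ATPase activity, fell by 1.11 in the average and lay below the 40th percentile on all 3 induced TS arrays at 84 h. ORC3 fell by 0.61 and ORC4 by 0.21. ORC2, a core subunit, gave 210.1, 186.5 and 185.1 with induced A5 in TS at 84 h, against 242.9, 233.6 and 216.0 without dox. Its arrays did not overlap there, but overlapped in TS at 72 h (205.2 to 230.7 against 205.6 to 239.3) and in Su-DHL1 (198.0 to 233.6 against 174.8 to 234.2). Its average was -0.09 ± 0.07 (limma adjusted p = 0.288, 95% interval -0.22 to 0.05), and that of ORC5 was -0.13.

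All 3 licensing genes fell in every setting (median of the average -1.56). CDC6, the ATPase that helps load the helicase, gave at most 33.7 on the 3 induced A5 arrays of TS at 84 h, against 125.7, 151.8 and 121.3 without dox. It gave 34.0 to 38.0 against 149.3 to 156.5 in TS at 72 h and 49.3 to 67.4 against 151.2 to 182.2 in Su-DHL1. The groups lay far apart each time, and the average was -1.71 ± 0.10 (limma adjusted p = 2.59e-13). The induced TS arrays of CDC6 all lay below the 40th percentile, so its fold depends on the value added before the logarithm. GMNN, geminin, the inhibitor of CDT1, gave 353.2 to 496.3 with induced A5 in TS at 84 h, against 1434.5 to 1690.0 without dox. Its average was -1.43 ± 0.07 (limma adjusted p = 1.33e-14), so the loader CDT1 (-1.56) and its inhibitor fell side by side.

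All 6 MCM2-7 helicase subunits fell in every setting, with a median of -1.81 in the average. MCM2 gave 189.7, 205.3 and 190.1 with induced A5 in TS at 84 h, against 1680.0, 1697.6 and 1421.3 without dox. It gave 272.4, 286.2 and 283.5 against 1745.3, 1553.0 and 1957.8 in TS at 72 h, and 561.6, 578.3 and 549.1 against 1416.0, 1324.0 and 1528.4 in Su-DHL1. The induced arrays of each setting lay close together and far below the uninduced ones, the average being -2.29 ± 0.05 (limma adjusted p = 5.77e-20). MCM5 fell by 2.13 in the average; in Su-DHL1 it gave 172.1, 213.0 and 263.4 against 628.8, 529.3 and 693.8 (-1.48 ± 0.16, limma adjusted p = 2.05e-07). MCM4 gave 137.9, 134.5 and 120.8 with induced A5 in TS at 84 h, against 1011.5, 912.5 and 1120.0 without dox (-2.85 ± 0.10, limma adjusted p = 1.03e-16). Neither gene's groups overlapped. In the average, MCM4 fell by 1.86, MCM7 by 1.76 and MCM3 by 1.45. MCM6 changed least among the 6: 890.0, 959.5 and 951.4 with induced A5 in TS at 84 h against 2005.6, 1845.9 and 1974.2 without dox. Its arrays did not overlap in any setting, and its average was -0.78 ± 0.06 (limma adjusted p = 2.55e-10).

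The origin firing factors had a median of -1.84 in the average, where all 7 fell. GINS2, a subunit of the GINS complex that travels with the helicase, gave 31.0, 24.8 and 3.6 with induced A5 in TS at 84 h, against 430.9, 458.0 and 365.0 without dox. It gave 103.7, 79.9 and 96.4 against 514.1, 511.9 and 680.5 in TS at 72 h, and 235.8, 286.1 and 241.2 against 540.4, 393.4 and 625.0 in Su-DHL1. The arrays never overlapped, and the average was -2.46 ± 0.15 (limma adjusted p = 1.24e-12). At 84 h its change was -3.93 ± 0.26, but -4.74 with 1 and -2.76 with 50 added to the signal, since its induced arrays there all lay below the 40th percentile. CDC45, which joins the helicase with GINS, gave 3.9, 19.7 and 27.7 with induced A5 in TS at 72 h, against 158.9, 135.0 and 164.8 without dox (-2.65 ± 0.35, limma adjusted p = 1.88e-06). In Su-DHL1 it gave 10.2, 31.5 and 57.4 against 146.9, 135.6 and 128.5 (-1.90 ± 0.35, limma adjusted p = 0.000249). The groups did not overlap in either line, but with 50 added the changes were -1.61 and -1.21, and with 1 added -3.42 in TS. In the average, GINS1 fell by 2.41, CDC45 by 2.29, the initiation factor MCM10 by 1.84, and the kinase CDC7 and its activator DBF4 by 1.17 and 1.08. GINS3, in the same complex as GINS2, gave on its brightest probe set 103.1, 90.1 and 104.6 with induced A5 in TS at 84 h, against 187.8, 287.0 and 226.6 without dox. Its average there was -0.69 ± 0.10 (limma adjusted p = 2.91e-06), and in Su-DHL1 (-0.35) it was not called. On its other probe set the average was -1.54.

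**Figure D2:**
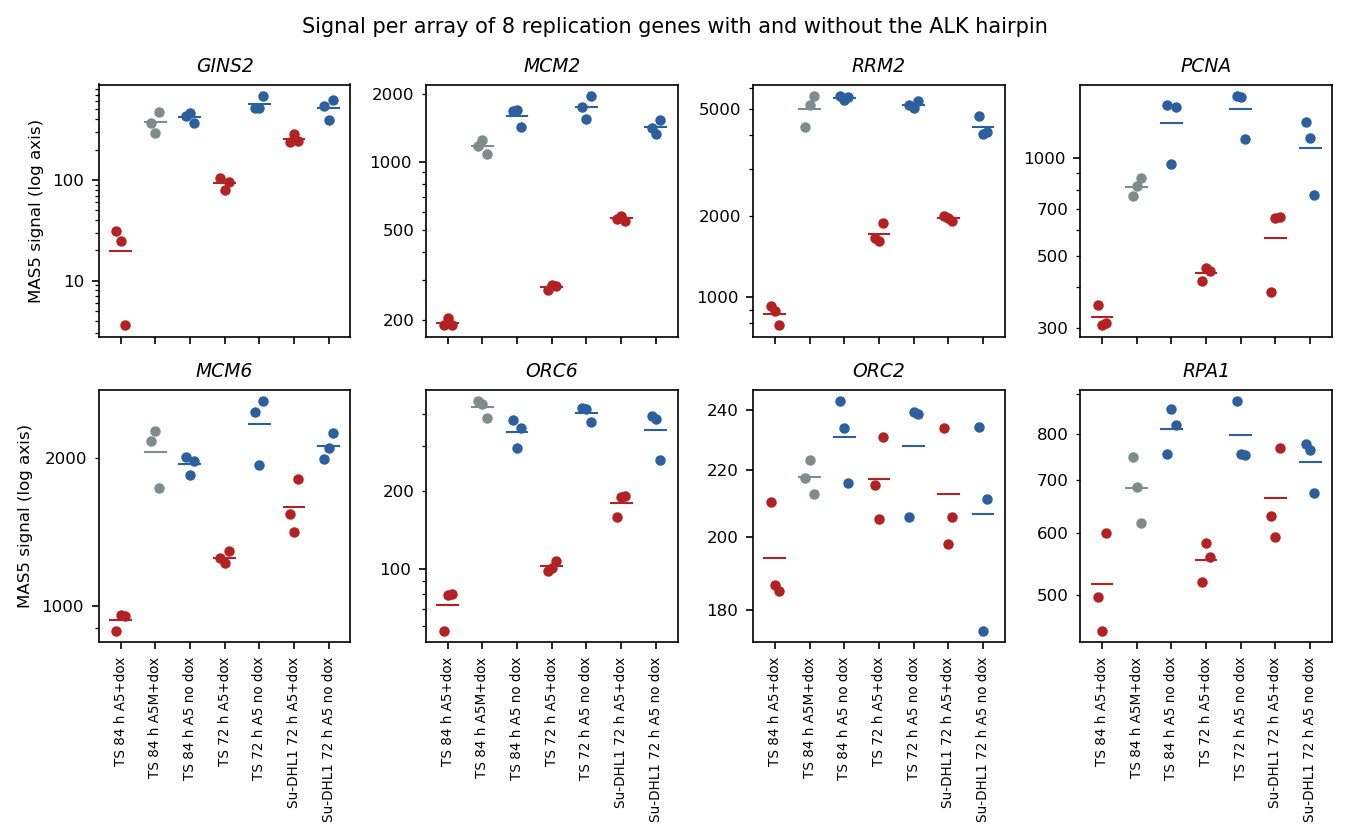
MAS5 signal (log axis) of 8 replication genes on each of the 21 hairpin arrays: red points are induced A5, grey induced A5M and blue uninduced A5, and the short line is the mean of 3 arrays. MCM2 lies at 189.7 to 205.3 with induced A5 in TS at 84 h and at 1421.3 to 1697.6 without dox, while the ORC2 groups overlap at 72 h in both lines.

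Polymerases and primase fell less than the helicase and firing groups, with a median of -0.85 in the average and all 10 called. PRIM1, the catalytic primase subunit that makes RNA primers, gave 162.1, 226.0 and 182.5 with induced A5 in TS at 84 h, against 1037.2, 1058.3 and 786.5 without dox. It gave 286.6 to 336.0 against 896.4 to 1080.3 in TS at 72 h and 267.9 to 296.5 against 446.2 to 534.1 in Su-DHL1. These groups did not overlap (average -1.57 ± 0.07, limma adjusted p = 8.61e-15). PRIM2, the large primase subunit, gave 30.3, 68.4 and 50.1 with induced A5 in TS at 84 h, against 117.8, 42.8 and 86.9 without dox. Its groups overlapped, and its average of -0.41 ± 0.17 (limma adjusted p = 0.044) was called by a small margin. Leaving out any of 10 of the 21 arrays lost that call, with an adjusted p of up to 0.115, and it was not called in any single setting. Of polymerase epsilon, POLE2 fell by 1.55, the catalytic subunit POLE by 0.64 and POLE3 by 0.63. Of polymerase alpha, POLA2 fell by 1.51 and the catalytic POLA1 by 0.86. Of polymerase delta, the catalytic POLD1 fell by 1.18, POLD3 by 0.84 and POLD2 by 0.49.

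The clamp PCNA and the RFC clamp loader all fell (6 of 6, median -1.35). RFC4 gave 413.4, 403.7 and 405.8 with induced A5 in TS at 84 h, against 1904.8, 1561.1 and 1828.6 without dox, and its average was -1.60 ± 0.05 (limma adjusted p = 2.07e-18). RFC3 fell by 1.59, PCNA by 1.50, RFC5 by 1.20 and RFC2 by 0.75. RFC1, the large loader subunit, gave 195.0, 201.0 and 203.4 with induced A5 in TS at 84 h, against 267.2, 230.7 and 231.0 without dox. Its arrays did not overlap, but only the average (-0.38 ± 0.07, limma adjusted p = 8.24e-05) and both 72 h settings were called. Of the 79 probe sets of the members, 75 were tested, 70 were lower in the average, and 4 were not called. The remaining one, a probe set of RFC5, was higher by 0.35, while both other probe sets of RFC5 fell.

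RPA, the complex that coats single-stranded DNA, fell in all 3 subunits (median -0.69). RPA3 gave 783.7, 696.8 and 813.6 with induced A5 in TS at 84 h, against 2105.7, 2066.7 and 2034.9 without dox, and its average was -0.79 ± 0.05 (limma adjusted p = 3.37e-12). RPA1, the largest subunit, gave 498.1, 451.0 and 599.6 against 755.7, 861.6 and 822.4 in the same setting. Its TS groups stood apart, but in Su-DHL1 it gave 593.0 to 768.2 against 673.4 to 777.9, which overlap, and the average was -0.44 ± 0.07 (limma adjusted p = 3.92e-06). RPA2 fell by 0.69 in the average.

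The 3 genes of primer removal and ligation fell in every setting (median of the average -1.26). FEN1, the flap endonuclease, gave 173.8, 166.0 and 167.8 with induced A5 in TS at 84 h, against 576.6, 464.8 and 579.1 without dox, and its average was -1.30 ± 0.09 (limma adjusted p = 9.11e-12). LIG1, the ligase that seals Okazaki fragments, gave 108.2, 100.5 and 83.1 against 289.4, 294.7 and 296.3, and its average was -0.98 ± 0.06 (limma adjusted p = 5.65e-12). Neither gene had overlapping groups at 84 h. RNASEH2A, the catalytic subunit of the RNase that removes ribonucleotides, fell by 1.26 in the average.

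Both measured subunits of chromatin assembly factor 1, which deposits histones behind the fork, fell. CHAF1B gave 6.1, 3.1 and 4.5 with induced A5 in TS at 84 h, against 88.4, 97.3 and 100.7 without dox. It gave 44.4, 41.1 and 20.6 against 134.4, 126.1 and 125.3 in TS at 72 h, and 17.3, 27.1 and 19.2 against 107.8, 87.4 and 72.2 in Su-DHL1. No groups overlapped, and the induced arrays of TS at 84 h and of Su-DHL1 all lay below the 40th percentile. The average was -2.01 ± 0.13 (limma adjusted p = 2.51e-12), but it was -2.69 with 1 and -1.15 with 50 added to the signal in place of 11. CHAF1A fell by 0.76.

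All 5 nucleotide supply genes fell in the average (median -1.02). RRM2, the subunit that limits ribonucleotide reductase in S phase, gave 929.3, 891.7 and 786.8 with induced A5 in TS at 84 h, against 5607.8, 5413.2 and 5559.5 without dox. It gave 1621.5 to 1893.1 against 5042.8 to 5356.7 in TS at 72 h and 1919.4 to 2014.8 against 4033.8 to 4724.6 in Su-DHL1. The groups were far apart in each setting (average -1.79 ± 0.05, limma adjusted p = 2.8e-18). TYMS, thymidylate synthase, fell by 1.39, TK1, thymidine kinase, by 1.02, and RRM1, the large reductase subunit, by 0.83. DUT, the dUTPase, gave on its brightest probe set 1058.1, 1157.7 and 1068.2 with induced A5 in TS at 84 h, against 2275.5, 1754.5 and 2266.0 without dox (average -0.71 ± 0.05, limma adjusted p = 8.6e-11), and its other probe sets averaged -0.85 and -1.04. Of the fork protection pair, TIPIN gave 83.1, 74.7 and 89.1 with induced A5 in TS at 84 h, against 294.2, 228.8 and 246.4 without dox, with an average of -1.26 ± 0.07 (limma adjusted p = 6.19e-13). Its partner TIMELESS fell by 0.58 in the average and in Su-DHL1 (-0.08) was not called.

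The 53 members kept much the same order in the 3 settings. Across members, the log2 fold changes of TS at 84 h and TS at 72 h had a Pearson r of 0.89, those of TS at 72 h and Su-DHL1 0.84, and those of TS at 84 h and Su-DHL1 0.73 (n = 53 genes each). These are descriptions across genes, which are no replicates, and the settings share the probe sets and their brightness.

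A 3' to 5' signal ratio of ACTB, which depends on RNA quality and labelling, also moved with the hairpin in TS. It was 1.27 ± 0.02 (SD, n = 3) with induced A5 against 1.54 ± 0.05 without dox at 84 h, 1.32 ± 0.05 against 1.59 ± 0.11 at 72 h, and 1.36 ± 0.08 against 1.39 ± 0.03 in Su-DHL1. With that ratio as a covariate, 48 members fell in the average, 46 in TS at 84 h, 39 in TS at 72 h and 41 in Su-DHL1, and none rose. Of the 9101 genes, 2441, 1900, 1426 and 2145 were then called in either direction, in the same order. In the average, RFC1 (adjusted p = 0.236 in limma) and PRIM2 (0.723) were then no longer called.

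Against the control hairpin, dox and the kind of vector are the same in both groups. The A5 and A5M cells were separately transduced, so hairpin and cell pool cannot be told apart. Induced A5 against induced A5M in TS at 84 h again lowered 48 of 53 members and raised none, with a median of -1.50, where 43.3% of all genes were called in either direction (1822 lower and 2120 higher of 9101). In 50 members every A5 array lay below every A5M array, against 22.0% of all genes. This comparison shares its A5 arrays with the one above. GINS2 gave 31.0, 24.8 and 3.6 with A5, against 365.6, 292.6 and 474.4 with A5M, a change of -3.77 ± 0.26 (limma adjusted p = 2.4e-11). GINS1 gave 43.0, 34.4 and 46.1 against 495.5, 547.5 and 406.5, a change of -3.24 ± 0.12 (limma adjusted p = 5.29e-16). Both groups stood far apart. With 50 added to the signal these changes were -2.61 and -2.54, and with 1 added that of GINS2 was -4.57. CHAF1B changed by -2.82 ± 0.22, but by -4.20 with 1 and -1.45 with 50 added to the signal, and MCM2 by -2.52 ± 0.09. ORC5 was called here, at -0.36, and CHAF1A, at -0.39, was not.

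Induced A5M cells were also set against uninduced A5 cells. Induced A5M lowered 7 of 53 members, where 3.75% of all genes were lower, and raised none, where 3.24% were higher (median -0.14). The 7 were PCNA, MCM5, MCM2, LIG1, PRIM1, RPA3 and MCM4. In 14 members every A5M array lay below every uninduced array, against 9.42% of all genes. PCNA, the sliding clamp, gave 763.4, 819.1 and 871.5 with A5M, against 1457.1, 957.9 and 1443.4 in uninduced A5 cells, which do not overlap (-0.62 ± 0.19, limma adjusted p = 0.0487). MCM2 gave 1180.1, 1248.0 and 1086.0 against 1680.0, 1697.6 and 1421.3, also without overlap (-0.44 ± 0.09, limma adjusted p = 0.00452). MCM5 gave 349.8, 325.5 and 457.4 against 590.8, 629.7 and 466.1 (-0.56 ± 0.16, limma adjusted p = 0.0316), but with the mean of its probe sets the change was -0.31 and not called (limma adjusted p = 0.263). LIG1 gave 210.4, 213.8 and 221.9 against 289.4, 294.7 and 296.3 (-0.43 ± 0.11, limma adjusted p = 0.0209). The cells differ here in the hairpin, in the transduced pool and in dox at once, which cannot be told apart. The count was 0 when only these 6 arrays were fitted and 2 to 8 on leaving out 1 array, with 2 and 3 calls without A5M replicates 2 and 1 and 4 without any single uninduced replicate. The call of PCNA was lost on leaving out any of 14 of the 21 arrays, and those of MCM5 and LIG1 on leaving out any of 4 each.

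The fall was smaller in Su-DHL1 than in TS. At 72 h, 51 of 53 members had the smaller fall in Su-DHL1. The difference between the lines was taken as induced minus uninduced in Su-DHL1, less the same in TS. Its median was 0.47 for the members and 0.01 for all genes. A test of it called 18 members, all with the smaller fall in Su-DHL1. Of all genes, 1.68% were called in that direction and 1.21% in the other. GINS2 gave 235.8, 286.1 and 241.2 on induced Su-DHL1 arrays and 103.7, 79.9 and 96.4 on induced TS arrays, with uninduced levels of 393.4 to 625.0 in Su-DHL1 and 511.9 to 680.5 in TS. Its induced arrays stand apart between the lines and its uninduced ones overlap, and the difference was 1.49 ± 0.37 (limma adjusted p = 0.0223). POLA2, the second subunit of polymerase alpha, gave 133.5, 112.2 and 111.1 against 150.8, 160.6 and 161.9 in Su-DHL1, and 77.9, 67.8 and 44.6 against 258.1, 248.7 and 228.9 in TS. In both lines induced lay below uninduced, with the wider gap in TS (difference 1.43 ± 0.33, limma adjusted p = 0.0137). MCM2 differed by 1.27 ± 0.13 (limma adjusted p = 1.82e-06) and MCM4 by 1.18 ± 0.13 (7.37e-06).

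ORC4 was the member with the largest lean the other way (-0.15, not called). The lines differed in the ACTB ratio too, and with it as a covariate 6 members were called, where 91 of the 9101 genes were called in either direction. MCM2 (1.07, adjusted p = 0.00111 in limma) and MCM4 (1.26, 0.000415) were among the 6, while GINS2 (0.303) and POLA2 (0.122) were not. With 1 added to the signal, neither GINS2 (limma adjusted p = 0.182) nor POLA2 (0.0582) was called, and GINS2 was not called without limma's mean-variance trend either (0.0672). The call of GINS2 was also lost without induced replicate 2 or uninduced replicate 3 of TS at 72 h and without either replicate 2 of Su-DHL1.

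**Figure D3:**
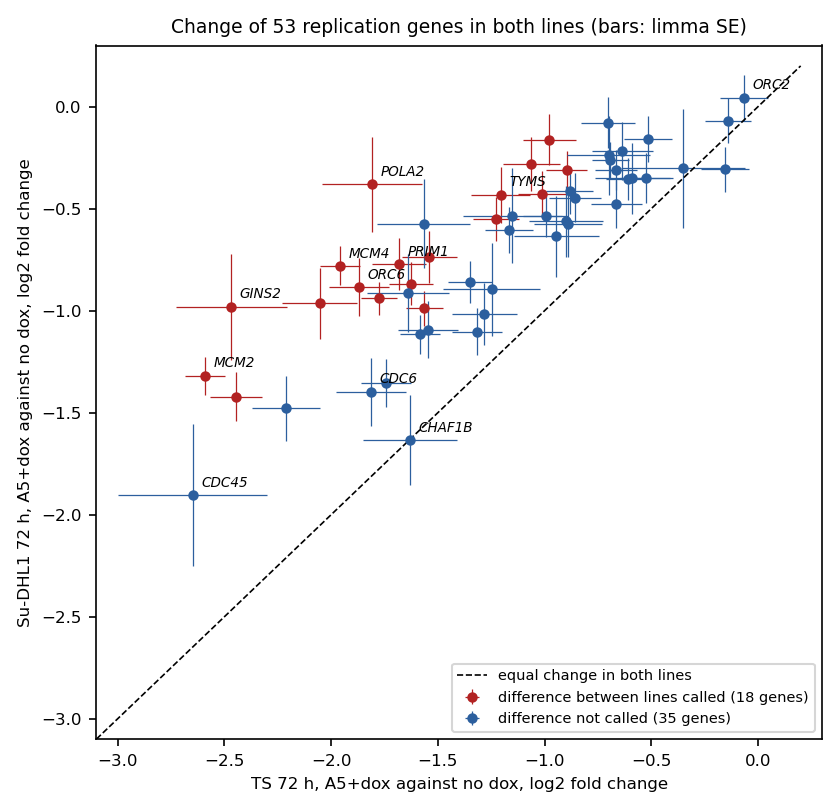
Log2 fold change of the 53 members with induced A5 against no dox at 72 h, TS on the horizontal and Su-DHL1 on the vertical axis, bars being limma's SE. The 18 members whose difference between lines was called (red) all lie above the dashed line of equal change.

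Before induction the lines also differed. Uninduced Su-DHL1 against uninduced TS at 72 h gave 16 lower and 2 higher members, where 10.4% of all genes were lower and 10.8% higher. PRIM1 gave 446.2, 494.1 and 534.1 in Su-DHL1, against 1035.5, 896.4 and 1080.3 in TS, without overlap (-1.01 ± 0.13, limma adjusted p = 2.34e-06). MCM4 differed by -0.63 ± 0.10 (limma adjusted p = 3.03e-05) and POLD1 by -0.64 ± 0.22 (0.038). In 24 members every Su-DHL1 array lay below every TS array, against 18.6% of all genes, and in 2 above, against 20.5%. The members higher in Su-DHL1 were CHAF1A, with 214.1, 251.4 and 249.6 against 124.4, 170.7 and 145.3 (0.67 ± 0.20, limma adjusted p = 0.0165), and POLE2, with 586.8, 598.5 and 511.4 against 429.5, 392.7 and 402.0 (0.46 ± 0.14, 0.0205). Neither gene's groups overlapped. The count fell to 8 of 53, all lower, with the ACTB ratio as a covariate. In that fit 1070 of the 9101 genes were called in either direction. The member count was 10 without uninduced TS replicate 1 or Su-DHL1 replicate 3, and 11 without replicate 2 of either. POLD1's call was lost on leaving out any of these 6 arrays, CHAF1A's and POLE2's on leaving out any of 3 and 4 of them.

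In TS the fall was larger at 84 h than at 72 h for 46 of 53 members. The difference was taken as induced minus uninduced at 84 h, less the same at 72 h. Its median was -0.32 for the members and -0.02 for all genes. The test of it called 9 members, all with the larger fall at 84 h. Of all genes, 0.978% were called that way and 0.297% the other. TYMS gave 1055.3, 854.2 and 745.0 with induced A5 at 84 h and 2137.2, 2013.1 and 1856.0 at 72 h, with uninduced levels of 5012.3 to 5238.6 at 84 h and 4271.7 to 4819.6 at 72 h. The induced groups do not overlap, and the difference was -1.33 ± 0.19 (limma adjusted p = 0.000276). RRM2 differed by -1.07 ± 0.13 (limma adjusted p = 4.11e-05). GINS2 (-1.46 ± 0.37, limma adjusted p = 0.0476) and CDT1 (-1.29 ± 0.32, 0.0463) were called by a small margin, and leaving out any of 15 and 16 of the 21 arrays lost these calls. GINS2 also differed by -2.15 with 1 and -0.66 with 50 added to the signal, called with neither. The 84 h and 72 h arrays come as separate sets, so time and set cannot be told apart.

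Many members hold a short promoter element, the E2F core. RefSeq promoters (build GRCh38.p14, 250 bases before to 50 after the start) were on hand for 48 members, with 66 starts. An E2F core was searched on either strand, spelled as TTCCCGC, or as TTCGCGC, or as TTGCCGC, or as TTGGCGC. It stood in at least 1 promoter of 36 of the 48 (75.0%), against 24.5% of 7465 tested genes with a promoter. Counted per start, 57.6% of 66 member promoters and 13.0% of 35116 promoters in the table held it. A CCAAT box stood in 58.3% of the members and 44.2% of the tested genes, and the cell cycle element TTTGAA in 8.33% and 15.0%, both searched on either strand. The stretches below run from 130 bases before the start to 20 after it, 5′ to 3′ on the gene's strand, with E2F core matches in capitals. They are the 4 members with the lowest averages among those with a match, so their sharing it follows from the choice. ORC2, the member nearest 0, was added after its value was seen.
GINS2: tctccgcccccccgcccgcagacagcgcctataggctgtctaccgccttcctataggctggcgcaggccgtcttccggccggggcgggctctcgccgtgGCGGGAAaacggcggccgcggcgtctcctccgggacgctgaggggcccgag
GINS1: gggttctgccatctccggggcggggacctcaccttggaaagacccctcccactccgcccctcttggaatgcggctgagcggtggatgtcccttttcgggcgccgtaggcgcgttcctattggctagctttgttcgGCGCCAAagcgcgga
MCM2: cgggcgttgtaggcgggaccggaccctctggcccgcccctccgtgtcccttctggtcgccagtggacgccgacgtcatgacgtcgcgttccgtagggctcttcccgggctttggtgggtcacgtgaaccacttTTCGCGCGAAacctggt
CHAF1B: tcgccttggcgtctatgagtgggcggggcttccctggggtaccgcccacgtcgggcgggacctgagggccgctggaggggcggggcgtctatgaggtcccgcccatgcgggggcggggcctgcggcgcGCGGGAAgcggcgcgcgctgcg
ORC2: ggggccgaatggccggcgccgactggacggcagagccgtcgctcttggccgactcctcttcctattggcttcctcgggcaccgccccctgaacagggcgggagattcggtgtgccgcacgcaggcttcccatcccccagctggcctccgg

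These stretches lie at chr16:85688935-85689084 (GINS2, minus strand), chr20:25407543-25407692 (GINS1, plus strand), chr3:127598281-127598430 (MCM2, plus strand), chr21:36385262-36385411 (CHAF1B, plus strand) and chr2:200963641-200963790 (ORC2, minus strand). MCM2 holds 2 overlapping matches, on opposite strands, and the others with a match hold 1. In GINS2 the match lies at bases -31 to -25, and in CHAF1B it spans the start. The 12 members without a match were CDC45, DBF4, FEN1, MCM10, ORC2, ORC4, ORC5, ORC6, POLD1, POLD2, PRIM2 and RNASEH2A. Members with a match had a median average change of -1.23 (n = 36) and those without one -1.13 (n = 12). CDC45 (-2.29), MCM10 (-1.84) and ORC6 (-1.61) fell strongly without a match in this window. A match is a description of letters and shows no binding.

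At 6 h the ALK inhibitor A2 mostly raised the members it changed. Members called with A3 went both ways, and against U at shares no higher than those of all genes. With A2 against A1, 18 members rose and 1 fell, which is 34.0% and 1.89% of the 53, where 19.1% of all genes rose and 14.3% fell. The median was 0.29, against 0.02 for all genes. Every array of A2 lay above every array of A1 for 24 members, against 25.1% of all genes, and below for 4, against 19.4%. CDT1, the licensing loader, gave 418.6, 358.3 and 333.4 with A2, against 206.6, 127.7 and 153.5 with A1, without overlap (1.15 ± 0.16, limma adjusted p = 2.54e-05). LIG1 gave 556.3, 552.2 and 526.7 against 268.0, 240.7 and 290.0 (1.01 ± 0.12, limma adjusted p = 4.18e-06). MCM5 gave 1419.2, 1344.1 and 1266.0 against 736.4, 628.6 and 703.5 (0.95 ± 0.11, limma adjusted p = 4.63e-06). Neither gene's groups overlapped. POLA1 gave 343.4, 293.6 and 399.1 against 179.6, 151.2 and 219.2 (0.88 ± 0.15, limma adjusted p = 0.000222).

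The member that fell with A2 on its main probe set was POLE3, a small histone-fold subunit of polymerase epsilon. It gave 521.5, 487.8 and 576.4 with A2, against 857.1, 822.0 and 946.3 with A1, without overlap (-0.72 ± 0.11, limma adjusted p = 6.51e-05). Over the 75 tested probe sets, 27 were higher and 2 lower, and 6 genes not called by their main probe set were called by another. CDC6, CHAF1A, FEN1, MCM4 and RFC1 were higher there, and GINS3 was lower (-0.72). The share of all probe sets called was not counted. With the mean of a gene's probe sets, 21 members were higher and 4 lower, where 3093 of the 8594 genes were called in either direction. All 18 members that rose with A2 were lower in the hairpin average, but so were 51 of all 53, so this overlap was nearly fixed in advance. POLE3 was lower in both. Across the 53 members the hairpin average and A2 against A1 had a Pearson r of -0.08, given as a description. The experiments differ in time, agent and arrays, and the difference between them was not tested.

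With A3 against A1, 14 members rose and 5 fell, which is 26.4% and 9.43%, where 18.5% and 14.2% of all genes did. The median was 0.07, against 0.04 for all genes. Every A3 array lay above every A1 array for 15 members, against 24.0% of all genes, and below for 11, against 18.6%. CDT1 gave 299.7, 322.6 and 274.3 with A3, against 206.6, 127.7 and 153.5 with A1, without overlap (0.86 ± 0.16, limma adjusted p = 0.000442). LIG1 gave 416.2, 465.3 and 416.6 against 268.0, 240.7 and 290.0 (0.68 ± 0.12, limma adjusted p = 0.000239). TIPIN, the fork protection factor, gave 142.7, 155.0 and 130.7 with A3, against 348.4, 206.3 and 218.0 with A1 (-0.77 ± 0.17, limma adjusted p = 0.0024). It lay lower on every A3 array. GINS2 gave 281.3, 340.4 and 294.1 against 418.9, 708.7 and 409.8 (-0.68 ± 0.18, limma adjusted p = 0.00629). MCM6 gave 1456.3, 1203.2 and 1545.7 against 2068.0, 1948.2 and 2548.0 (-0.64 ± 0.14, limma adjusted p = 0.00183). POLE2 fell by 0.60 (limma adjusted p = 0.00085) and POLE3 by 0.51.

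The ACTB ratio moved with the inhibitors as well: 1.05 ± 0.03 with A2, 1.06 ± 0.15 with A3, 1.33 ± 0.07 with A1 and 1.18 ± 0.12 in U (SD, n = 3 each). With it as a covariate, 8 members rose and 1 fell with A2 against A1, and 3 rose and 1 fell with A3 against A1. These are 9 and 4 of the 53 members, where 1354 and 1452 of the 8594 genes were called in either direction. CDT1 (1.22, adjusted p = 0.0027 in limma), LIG1 (0.99, 0.00142) and MCM5 (0.90, 0.00195) were still called with A2, as was POLE3 (-0.67, 0.0112). With A3, TIPIN (0.0994), GINS2 (0.152) and MCM6 (0.0741) were not.

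Set against U, the group without compound, A2 raised 16 members and lowered 2, with a median of 0.17. These are 30.2% and 3.77% of the 53, against 19.7% and 15.4% of all genes. PRIM2 gave 91.7, 147.4 and 132.7 with A2, against 48.2, 46.7 and 52.4 in U (1.14 ± 0.24, limma adjusted p = 0.00121). CHAF1B gave 285.8, 286.4 and 281.1 against 160.6, 123.7 and 170.3 (0.87 ± 0.14, 8.31e-05). Both lay higher on every A2 array. POLA1 rose by 0.76 and CDT1 by 0.71, and POLE3 (-0.67 ± 0.11) and POLE2 (-0.37 ± 0.12, limma adjusted p = 0.022) fell. POLE2's call was lost without U replicate 1 or 3 or A2 replicate 3. The total of 18 was 11 without U replicate 2.

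A3 against U raised 7 and lowered 7 (13.2% each of the 53, against 18.8% and 14.9% of all genes), with a median of 0.01. GINS2 gave 281.3, 340.4 and 294.1 with A3, against 464.7, 563.3 and 573.9 in U, without overlap (-0.78 ± 0.18, limma adjusted p = 0.00232). POLE2 gave 252.0, 268.7 and 312.3 against 467.4, 397.0 and 472.2 (-0.66 ± 0.12, limma adjusted p = 0.000315). TIPIN fell by 0.64 (limma adjusted p = 0.00807). POLA1 (0.54), ORC3 (0.51), CHAF1B (0.49) and RFC5 (0.48) rose. Without U replicate 2 the total of 14 was 9, and TIPIN, ORC3, CHAF1B and RFC5 were not called, ORC3 and RFC5 also not without U replicate 3 or A3 replicate 1 or 3. ORC3, POLA1, RFC5, RPA1, LIG1, CHAF1B and RRM1 were called higher in all 4 comparisons of an inhibitor with A1 or U, and POLE3 lower. With the ACTB ratio as a covariate, 1 of these 7, RFC5, was called higher in all 4, and POLE3 was not called with A3 against A1 (limma adjusted p = 0.065). These comparisons share arrays, so they are not independent. The share of all genes called higher in all 4 was not counted. It is at most 18.5%, the lowest of the 4 single shares, so the 7 are not read as a trait of the members.

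**Figure D4:**
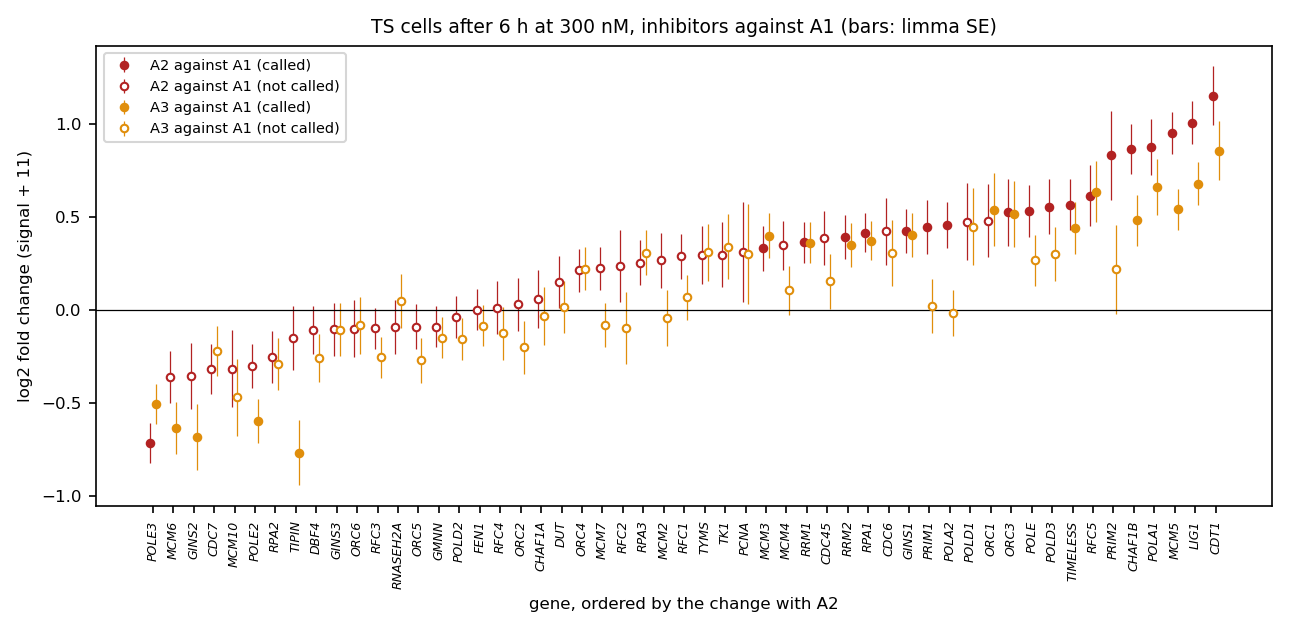
Log2 fold change of the 53 members after 6 h with A2 (red) and A3 (orange), each against A1, ordered by the change with A2, bars being limma's SE and filled points called. CDT1, LIG1 and MCM5 lie highest with A2 and POLE3 lowest, and TIPIN lies lowest with A3.

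A3 against A2, both at 300 nM for 6 h, was the 1 pair of inhibitors to compare. No member was called by limma, where 0.151% of all genes were called. An unadjusted limma p below 0.05 was reached by 9 of the 53 members and by 762 of all 8594 genes. Member differences ranged from -0.62 to 0.21, with a median of -0.13 against 0.01 for all genes, and 42 of 53 were negative. Of the 95% intervals, 44 of 53 included 0, and they reached a median of 0.29 to each side of the estimate. TIPIN differed by -0.62 ± 0.17 (limma adjusted p = 0.272) and PRIM2 by -0.61 ± 0.24 (0.454), which ranged from -0.83 to -0.30 on leaving out 1 array. That no difference passed does not show that A2 and A3 acted alike. A1 against U called no member by limma either, where 0.0349% of all genes were called. There, 6 of the 53 members and 767 of all 8594 genes had an unadjusted limma p below 0.05. POLD1 gave 343.7, 333.7 and 289.7 with A1, against 397.2, 550.9 and 413.5 in U (-0.47 ± 0.21, limma adjusted p = 0.52), and CDT1 differed by -0.45 ± 0.16 (0.385).

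The rest of the pathway gave a wider spread. A list of 54 other replication genes, written from general knowledge, had 43 on the array and 40 tested. In the hairpin average, 30 of the 40 fell (75.0%) and 3 rose (7.5%), against 21.7% and 29.1% of all genes, with a median of -0.78. Those lowest were CDC25A, the phosphatase that activates CDK2 (-2.38), the chromatin remodeller HELLS (-2.22), FBXO5, an inhibitor of the anaphase-promoting complex (-1.91), and cyclin A2, CCNA2 (-1.81). The 3 that rose were POLD4, the small subunit of polymerase delta (1.09), SAMHD1, which degrades dNTPs (0.66), and the histone chaperone ASF1A (0.52). In Su-DHL1, 52.5% of the 40 fell and 2.5% rose, against 10.7% and 13.9% of all genes. With A2 against A1, 37.5% rose and 15.0% fell, against 19.1% and 14.3%.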

How the data were processed

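Total RNA of 33 samples was hybridised to 33 HG-U133A arrays. The deposited values are MAS5 signals, an intensity per probe set. Per the submitters' processing notes, MAS5 was the tool the authors used, and its version is not given in the sources used here. Trimmed means (2% off each end) were 200.06 to 200.08 on all arrays, so arrays had been scaled to a common target and a global change of RNA content cannot be seen. Of 22283 probe sets, 68 controls were left out. Platform annotation gave 19065 of the rest 1 symbol, 1043 several (not used) and 2107 none.

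A value of 11 (all signals' 20th percentile, rounded) was added before log2. A probe set was kept if 3 or more arrays of the fit had it at or over the 40th percentile, and the brightest stood for its gene. limma 3.58.1 in R 4.3.3 (lmFit, eBayes with trend, 1 mean per group) was fitted to 21 hairpin arrays (14 residual degrees of freedom) and 12 inhibitor arrays (8), with two-sided p adjusted by Benjamini-Hochberg over all genes. The fits were tested on simulated data. Tables and figures used Python 3.11.15, pandas 2.3.3 and matplotlib 3.10.9. ORC6, DUT and CHAF1A rest on probe sets that may cross-hybridise.

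Members and lists were chosen with earlier results of these data known. Values on every array are given by rule: in each role, the member with the lowest average and, in roles of 3 or more, the one nearest 0; in other comparisons, the 4 largest called changes and up to 4 called the other way, or the 2 largest where none was called. Some of these are given by fold change only, and all other members by fold change or count. Replicate numbers of the titles did not pair the arrays: deviations of same-numbered arrays correlated at -0.21 to 0.11. Alternatives were the added value, no filter, quantile normalization, a block for the replicate number, the mean of a gene's probe sets, no trend, the ACTB ratio as a covariate, only the groups compared, and leaving out each array.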

Additional observations from a re-analysis of the deposited data

Results flagged for a closer look

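The change with induced A5 differed between the lines and between the times by a test of the difference itself. Between Su-DHL1 and TS at 72 h, 18 members differed, each with the smaller fall in Su-DHL1, led by GINS2 (1.49 on the log2 scale), POLA2 (1.43), MCM2 (1.27) and MCM4 (1.18). GINS2 and POLA2 were not called with 1 added to the signal or with the ACTB ratio as a covariate.

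Between 84 h and 72 h in TS, 9 members differed, each with the larger fall at 84 h. Among them were GINS2 (-1.46), TYMS (-1.33), CDT1 (-1.29) and RRM2 (-1.07). GINS2 and CDT1 were not called with 1 added to the signal, without the filter on dim probe sets or with a replicate block.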

How the results depend on the processing

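Apart from A3 against U, no count of members turned its direction under the alternatives run, and no named change did. A3 against U, with 7 higher and 7 lower as reported, leaned both ways. It gave 9 higher and 7 lower with a replicate block, and 3 higher and 5 lower with the ACTB ratio as a covariate. Counts moved by over 1.5 times in these cases, and the cause was not tested. Adding the ACTB ratio left 6 called for the difference between lines (18 as reported), 8 for the uninduced lines (18), 9 for A2 against A1 (19), 4 for A3 against A1 (19) and 8 for A3 against U (14). In that order, the genes called with it were 91 and 1070 of all 9101, and 1354, 1452 and 2444 of all 8594. For A5M against uninduced A5 (7), the mean of a gene's probe sets and a fit without the trend each gave 4, and only the groups compared gave 0, fewer arrays being fitted.

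Leaving out 1 array at a time gave 50 to 52 for the hairpin average, 48 to 49 for TS at 84 h, 47 to 49 against A5M, 48 to 49 for TS at 72 h, 34 to 41 for Su-DHL1, 15 to 22 for the lines, 7 to 12 for the times and 2 to 8 for A5M against uninduced A5. It gave 10 to 19 for the uninduced lines, 15 to 22 for A2 against A1, 13 to 19 for A3 against A1, 11 to 19 for A2 against U and 9 to 18 for A3 against U, and 0 for A1 against U and A3 against A2. A replicate block, though the numbers did not pair the arrays, gave 50, 48, 48 and 49 for the first 4 of these, 39 for Su-DHL1, 17 for the lines, 7 for the times and 6 for A5M against uninduced A5. Of 2178 recomputed changes of named members, 142 were no longer called, and of 396 recomputed medians 58 moved by more than the spread between arrays. Members below the 40th percentile, such as CHAF1B and GINS2 with induced A5, have folds set largely by the value added.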
